A study of Mus musculus with 2 samples.

Results

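The cornified envelope genes of the epidermal differentiation complex are the genes whose proteins are laid down beneath the membrane of skin cells as they die and become squames. They were taken as all small proline-rich genes (symbols starting Sprr), all late cornified envelope genes (symbols starting Lce), and the genes Flg, Flg2, Ivl, Hrnr, Rptn, Crnn, Tchh and Crct1. The rule used symbols only and gave 44 of 32285 measured genes: 15 Sprr genes, 21 Lce genes and the 8 genes listed by name. All 44 lie on mouse chromosome 3, between positions 92215835 and 93449077 of GRCm38, the build that the submitters' processing notes name as mm10.

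The study follows hair follicle stem cells and their descendants through skin wounding when Phgdh, the gene of the enzyme that opens serine synthesis, is intact or deleted. Every mouse carried Sox9-CreER, a tamoxifen-activated Cre recombinase in the Sox9 lineage of the hair follicle, and R26-LSL-YFP, which makes cells that have had active Cre yellow fluorescent, on a C57B6/J background. The mice differed in being Phgdh fl/fl, with alleles that Cre can delete, or Phgdh +/+, and were compared unwounded, at 3 days and at 5 days post wounding. Each of the 6 conditions was labelled with its own hashtag antibody, and all 6 were loaded together in a single droplet capture.

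The pools are, in order of time, unwounded fl/fl and unwounded +/+, 3 days fl/fl and 3 days +/+, and 5 days fl/fl and 5 days +/+. Unwounded cells had been sorted as living cells without SCA1 or the dump markers (CD31, CD45, CD117 and CD140a) that carried YFP, CD200, CD34 and high integrin-α6, which is the gate of the bulge, the stem cell niche of the follicle. Wounded cells had passed the same dump gate but needed only high integrin-α6 and YFP, so wounding and the change of gate cannot be told apart. The labels describe male and female animals as pooled and give no ages. Cells called female from Xist and Y-linked transcripts were found in the +/+ pools alone, at 31.1% of cells at 3 days and 23.7% at 5 days. Cre was driven in Sox9 lineage cells only, and an integrin-α6 gate favours basal cells.

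Each condition is 1 pool of cells without a replicate, so no difference here was tested. Levels are given as CPM, the count of unique molecular identifiers (UMIs, 1 per captured transcript) scaled to a common total for each pool. Because the assay counts transcript 3′ ends, CPM is not scaled by gene length and can be set side by side between genes. Intervals in parentheses are 95% intervals that cover counting error only. A fold is called "measured" where the mean of both pools is at least 5 CPM, and is counted as higher or lower where it passes 2-fold. A level in a pool can differ because fewer cells carry the transcript or because each carries less of it, and a sum over a pool does not separate these.

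The 6 pools held 662, 406, 523, 1281, 1434 and 1353 cells, in the order above, with 5167131, 3241223, 22247350, 54365641, 70925244 and 54500493 gene UMIs. The median cell held 7174.5 to 7243 UMIs in the unwounded pools and 36277 to 45701.5 UMIs in the wounded pools, so a count of 3 corresponds to 0.581 and 0.926 CPM in the unwounded pools and to 0.0423 to 0.135 CPM in the wounded pools. Phgdh itself stood at 25.2 CPM in unwounded fl/fl cells and 54.3 CPM in unwounded +/+ cells, at 15.3 against 117 CPM at 3 days, and at 20.2 against 138 CPM at 5 days. Summed markers of the bulge (8 genes, Cd34 among them) reached 16515 and 15446 CPM in the unwounded pools and 278 to 814 CPM in the wounded pools. Summed immune markers were at 0.8 to 5.9 CPM in every pool. Free RNA, estimated from barcodes of at least 100 and under 400 UMIs, amounted to 3.28% and 3.21% of the UMIs of the unwounded pools and to 0.517% to 0.635% of those of the wounded pools.

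As a keratinocyte leaves the basal layer it first makes the keratins 1 and 10, then involucrin and other precursors, which transglutaminases cross-link into a scaffold beneath the membrane. Loricrin, small proline-rich proteins and late cornified envelope proteins are added to that scaffold, and filaggrin, released from a large precursor, bundles the keratin filaments of the flattened cell. The genes sit together in a single cluster, which also holds the S100 genes. In mouse and human skin the small proline-rich and LCE3 genes are known for being low in resting epidermis and induced by injury and inflammation, whereas filaggrin and LCE1 genes belong to normal terminal differentiation.

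Promoter sequences, from 250 bases before to 50 bases after the annotated start (RefSeq, GRCm38.p6, printed 5′ to 3′ on the gene's strand), are shown for 5 members that stand for the different patterns described below. Sprr1b, on the minus strand at chr3:92438730-92439029, was the most abundant member. Sprr2h, on the plus strand at chr3:92385435-92385734, was the most abundant Sprr2 gene at 3 days. Ivl, on the minus strand at chr3:92573686-92573985, encodes the scaffold precursor involucrin. Flg, on the plus strand at chr3:93273296-93273595, and Lce3c, on the plus strand at chr3:92944236-92944535, stand for the filaggrin and late envelope groups. Capitals mark matches to TGANTCA, searched on both strands. This pattern takes in the consensus TGA(G/C)TCA of the AP-1 factors (Jun and Fos families) but also allows A or T in the middle. The marked stretch is TGAGTCA in Sprr2h and TGACTCA in Ivl, but TGAATCA in Sprr1b and Flg, which is outside the consensus.
Sprr1b: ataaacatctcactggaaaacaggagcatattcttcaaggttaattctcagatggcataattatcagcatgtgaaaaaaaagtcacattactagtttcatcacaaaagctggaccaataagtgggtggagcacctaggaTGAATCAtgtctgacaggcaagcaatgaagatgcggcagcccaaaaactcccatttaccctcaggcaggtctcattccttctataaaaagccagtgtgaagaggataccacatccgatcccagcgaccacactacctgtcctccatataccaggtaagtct
Sprr2h: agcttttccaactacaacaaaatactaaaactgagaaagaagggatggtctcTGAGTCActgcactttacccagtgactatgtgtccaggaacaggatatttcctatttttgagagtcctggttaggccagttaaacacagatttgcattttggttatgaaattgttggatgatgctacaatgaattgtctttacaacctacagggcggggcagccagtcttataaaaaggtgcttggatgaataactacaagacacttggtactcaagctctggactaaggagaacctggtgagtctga
Ivl: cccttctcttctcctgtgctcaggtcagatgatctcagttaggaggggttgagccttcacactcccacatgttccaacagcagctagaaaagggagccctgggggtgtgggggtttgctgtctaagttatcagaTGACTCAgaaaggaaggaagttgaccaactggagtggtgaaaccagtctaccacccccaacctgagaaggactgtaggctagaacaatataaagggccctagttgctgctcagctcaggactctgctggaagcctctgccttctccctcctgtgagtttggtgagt
Flg: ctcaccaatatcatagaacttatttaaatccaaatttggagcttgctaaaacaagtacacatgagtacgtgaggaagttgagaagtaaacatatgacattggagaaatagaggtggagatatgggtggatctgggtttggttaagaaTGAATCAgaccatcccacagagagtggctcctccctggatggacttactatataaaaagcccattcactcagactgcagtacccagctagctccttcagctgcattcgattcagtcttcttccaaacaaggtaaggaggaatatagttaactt
Lce3c: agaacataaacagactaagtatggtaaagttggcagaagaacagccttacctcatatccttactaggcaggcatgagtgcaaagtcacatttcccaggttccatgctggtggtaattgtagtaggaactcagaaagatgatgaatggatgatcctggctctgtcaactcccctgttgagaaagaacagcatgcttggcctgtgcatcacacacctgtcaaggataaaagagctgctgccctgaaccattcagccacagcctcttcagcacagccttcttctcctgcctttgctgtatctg
The match begins 111 bases before the start in Sprr1b, 198 in Sprr2h, 116 in Ivl and 103 in Flg, and Lce3c has none in this window.

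Over the 41 members with a promoter entry, 14 (34.1%) held TGANTCA, against 7.81% of 32851 promoters of the same length. The TATA sequence TATAAA stood in 19 member promoters (46.3%) and in 13.6% of all promoters. CACCC, bound by Klf factors, stood in 21 (51.2%) and in 57.5% of all promoters. TGANTCA was found in 10 of the 17 promoters of members that reached 20 CPM in some pool, in 4 of the 24 others, and in none of the 6 Lce3 promoters. TATAAA leaned the same way, in 11 of the 17 and 8 of the 24, and CACCC the other way, in 6 and 15. Over 45 pairs of Sprr2 promoters the ungapped identity at the same positions ranged between 19.7% and 100%, with a median of 28.3%. No alignment was made, so an insertion or a shifted start lowers the value, and a low value does not show unrelated sequences. Sprr2a1 and Sprr2a3, described below as near copies, gave 26.7%. Sprr2d and Sprr2e, which both hold the match, shared 88.0%, so the matches are not all independent of each other. A match describes the letters of this window and is neither a bound site nor a cause. Sprr2j-ps, Crct1 and Lce1f had no entry.

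After wounding the small proline-rich genes and the Lce3 genes with Crct1 were much higher than in unwounded bulge cells, and Ivl was higher. The Lce1 genes other than Lce1g stayed near 0. Filaggrin was high only in a few cells, at 3 days mostly +/+ cells and at 5 days about as many fl/fl as +/+ cells. Summed over the 44 members, the level was 205 CPM in unwounded fl/fl cells and 603 CPM in unwounded +/+ cells, 4225 and 3671 CPM at 3 days, and 2484 and 2249 CPM at 5 days. Free RNA would give 90.4 CPM of the sum in unwounded fl/fl and 88.4 CPM in unwounded +/+ cells, but 14.3 to 17.5 CPM in the wounded pools. All 4 wounded pools stood above both unwounded pools. The unwounded +/+ sum rests on 1 cell, which held 1266 of the 1953 member UMIs (64.8%), while the next cell held 45. A single cell of the 3 days fl/fl pool held 14517 member UMIs (15.4%), against 3038 in the next. In the other 4 pools the highest cell held 2.45% to 4.14%.

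**Figure D1:**
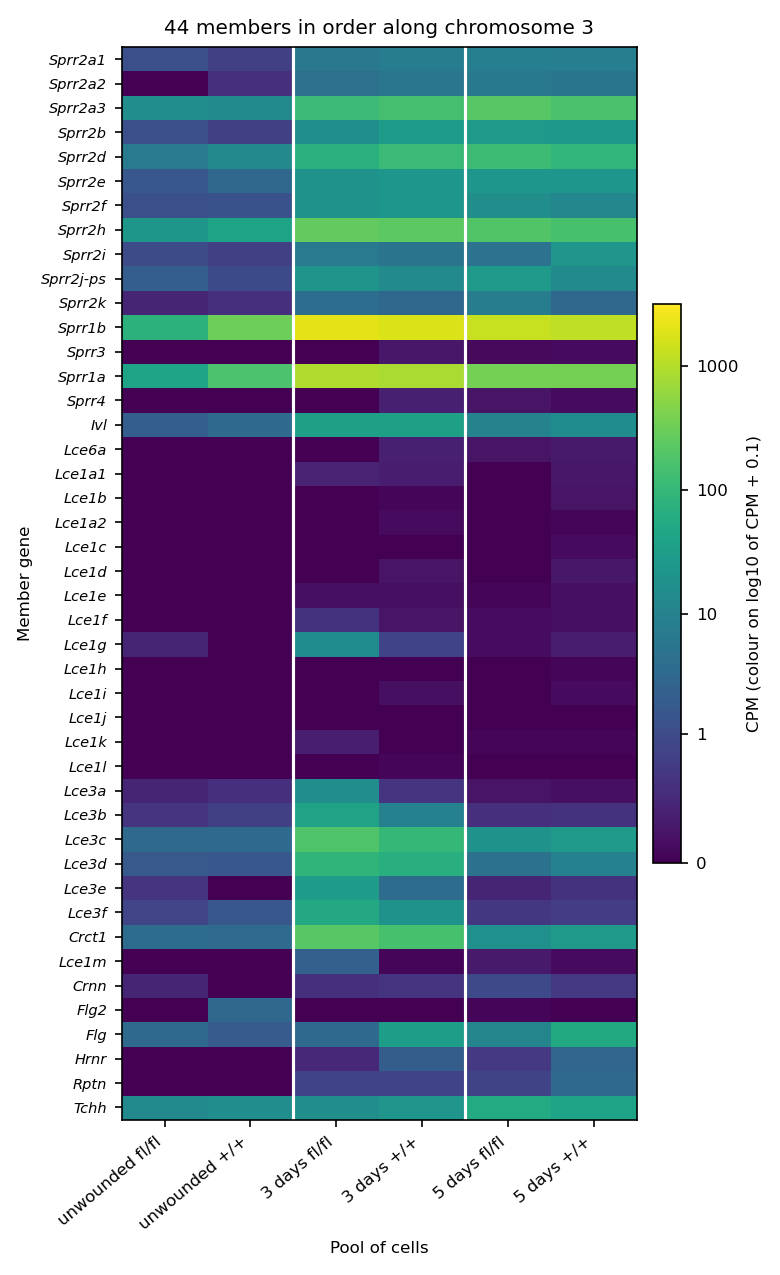
Level of each of the 44 members (rows, in their order along chromosome 3) in each of the 6 pools (columns), as colour on a log10 scale of CPM + 0.1. The Sprr2 and Sprr1 genes, the Lce3 genes with Crct1, and Tchh are the bright rows, whereas the Lce1 genes between Ivl and the Lce3 genes are dark in every pool apart from Lce1g in the 3 days fl/fl pool.

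Of the 44 members, 19 reached 20 CPM in at least 1 pool and 24 reached 5 CPM, whereas 16 never reached 1 CPM and Lce1j had no UMI in any pool. The 14 Lce1 genes, which encode late envelope proteins of normal epidermis, held 522 UMIs in all pools together, of which 386 UMIs were Lce1g. Of the 337 Lce1g UMIs at 3 days in fl/fl cells, 295 came from the one cell with most member UMIs. Sprr3 and Sprr4 reached 0.09 and 0.15 CPM at most, and Lce6a 0.15 CPM. Flg2, a filaggrin relative, had 11 UMIs in all, and Crnn, the gene of cornulin, had 0.888 CPM at most.

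Sprr1b and Sprr1a encode small proline-rich cross-bridging proteins and carried most of the family's transcripts. Sprr1b (ENSMUSG00000048455) had 78.6 CPM in unwounded fl/fl cells and 326 CPM in unwounded +/+ cells, 2049 and 1743 CPM at 3 days, and 1343 and 1187 CPM at 5 days. It ranked 97 and 104 among all genes at 3 days, in fl/fl and +/+ cells, and 128 and 134 at 5 days. Sprr1a had 40.8 and 166 CPM in the unwounded fl/fl and +/+ pools, 933 and 862 CPM at 3 days, and 368 and 359 CPM at 5 days. Both genes were highest at 3 days and lower at 5 days in both genotypes, Sprr1a more so.

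Sprr1b was also the member most widely spread over cells. A Sprr1b UMI was found in 45.3% and 44.8% of unwounded fl/fl and +/+ cells and in 80.9% to 87.5% of wounded cells, and with every cell thinned to 5000 UMIs the shares were 32.7% and 33.8% against 49.1% to 56.6%. In the unwounded pools 45.5 CPM of the 78.6 CPM in fl/fl cells and 44.5 CPM of the 326 CPM in +/+ cells is the amount that free RNA would give. The 406 Sprr1b UMIs of unwounded fl/fl cells were spread over 300 cells, with 4 at most in any cell. Among the 4591 wounded cells, 2183 held at least 5 Sprr1b UMIs, 1402 at least 5 of Sprr2a3, 1234 of Sprr2h and 1025 of Sprr1a.

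The Sprr2 genes encode smaller proteins of the same kind, apart from Sprr2j-ps, whose symbol marks it as a pseudogene. All 11 together summed to 55.7 and 74.7 CPM in unwounded fl/fl and +/+ cells, 546 and 611 CPM at 3 days, and 650 and 521 CPM at 5 days. Sprr2h had 24.0 and 40.1 CPM unwounded, 258 and 237 CPM at 3 days, and 192 and 156 CPM at 5 days, in fl/fl and +/+ cells. Sprr2a3 had 16.1 and 13.6 CPM unwounded, 116 and 147 CPM at 3 days, and 213 and 159 CPM at 5 days, so unlike Sprr1a and Sprr2h it was higher at 5 than at 3 days in both genotypes. Sprr2d had 7.35 and 13.3 CPM unwounded, 72.0 and 115 CPM at 3 days, and 124 and 93.0 CPM at 5 days. Sprr2b, Sprr2e, Sprr2f and Sprr2j-ps peaked at 22.9 to 30.6 CPM, each below 3.1 CPM unwounded. Sprr2a1, Sprr2a2 and Sprr2a3 are near copies of each other, so reads may have been shared or lost between them and their separate levels (8.80 and 6.61 CPM at most for Sprr2a1 and Sprr2a2) are uncertain.

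Sprr2i shows how far a pool's level can rest on a single cell. It had 0.968 and 0.617 CPM in unwounded fl/fl and +/+ cells, 7.24 and 5.28 CPM at 3 days, and 4.99 and 22.1 CPM at 5 days. Of the 1203 Sprr2i UMIs at 5 days in +/+ cells, 1066 (88.6%) lay in 1 cell, and without the highest cell of each pool the levels at 5 days were 4.01 CPM in fl/fl cells and 2.52 CPM in +/+ cells.

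Ivl, the gene of involucrin, had 2.13 and 3.39 CPM in unwounded fl/fl and +/+ cells, 35.7 and 35.4 CPM at 3 days, and 10.4 and 15.4 CPM at 5 days. The pools at 3 days were thus alike and both stood above those at 5 days. By pool levels, Ivl and the Lce3 genes with Crct1 showed the early peak most clearly of the 44 members, though in fl/fl cells the Lce3c peak rested on few cells.

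The Lce3 genes encode late cornified envelope proteins, and Crct1 encodes a small cysteine-rich protein and lies next to them. Lce3c (ENSMUSG00000045475) had 3.48 and 3.39 CPM in unwounded fl/fl and +/+ cells, 185 and 101 CPM at 3 days, and 19.98 and 26.3 CPM at 5 days. Lce3d had 1.74 and 1.54 CPM unwounded, 88.2 and 69.5 CPM at 3 days, and 4.64 and 9.41 CPM at 5 days. Crct1 had 3.87 and 3.70 CPM unwounded, 211 and 158 CPM at 3 days, and 18.3 and 27.0 CPM at 5 days. All 3 genes were high at 3 days and lower at 5 days, in both genotypes. In 3 days fl/fl cells, however, the 4123 Lce3c UMIs lay mostly in cells with 3258, 311, 224 and 201 UMIs. No other cell of that pool had more than 29. In +/+ cells not called female, Lce3c went from 56.6 CPM at 3 days to 28.2 CPM at 5 days. Lce3d went from 33.0 to 5.86 CPM in those cells, and Crct1 from 144 to 26.8 CPM.

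Lce3b, Lce3e and Lce3f were highest at 3 days. Lce3b had 38.8 CPM in fl/fl cells and 9.22 CPM in +/+ cells at 3 days and under 1 CPM in the other 4 pools. Lce3f had 52.4 and 20.4 CPM at 3 days, in fl/fl and +/+ cells, and at most 1.54 CPM elsewhere. Lce3e had 31.0 and 3.83 CPM at 3 days and at most 0.387 CPM elsewhere, and Lce3a 16.1 and 0.368 CPM. In the 3 days fl/fl pool 1 cell, which had 129109 UMIs in all, held 3258 of 4123 Lce3c UMIs, 2443 of 4685 Crct1 UMIs, 844 of 864 Lce3b UMIs and 1102 of 1165 Lce3f UMIs. That cell was the highest of its pool for 15 of the 25 members with at least 20 UMIs there.

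Filaggrin and its relatives followed another course. Flg (ENSMUSG00000102439) had 3.48 and 1.85 CPM in unwounded fl/fl and +/+ cells, 3.33 and 31.3 CPM at 3 days, and 11.03 and 53.5 CPM at 5 days. Hrnr, the gene of hornerin, had no UMI in either unwounded pool, 0.225 CPM in fl/fl cells and 2.02 CPM in +/+ cells at 3 days, and 0.451 and 2.86 CPM at 5 days. Rptn, the gene of repetin, had none unwounded, 0.719 and 0.699 CPM at 3 days, and 0.733 and 3.45 CPM at 5 days. The +/+ pools at 3 and 5 days were above all others for Flg and Hrnr, and the 5 days +/+ pool was above all others for Rptn.

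Tchh encodes trichohyalin, a protein best known from the inner root sheath and medulla of the hair follicle. It had 13.4 and 16.04 CPM in unwounded fl/fl and +/+ cells, 16.7 and 21.7 CPM at 3 days, and 55.6 and 41.3 CPM at 5 days. It was the one member with a sizeable level before wounding that was higher at 5 days and not at 3 days. Markers of the inner root sheath and hair (9 genes, Krt71 and Krt25 among them) summed to 2.0 to 6.8 CPM in the 6 pools, and none reached 5 CPM.

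**Figure D2:**
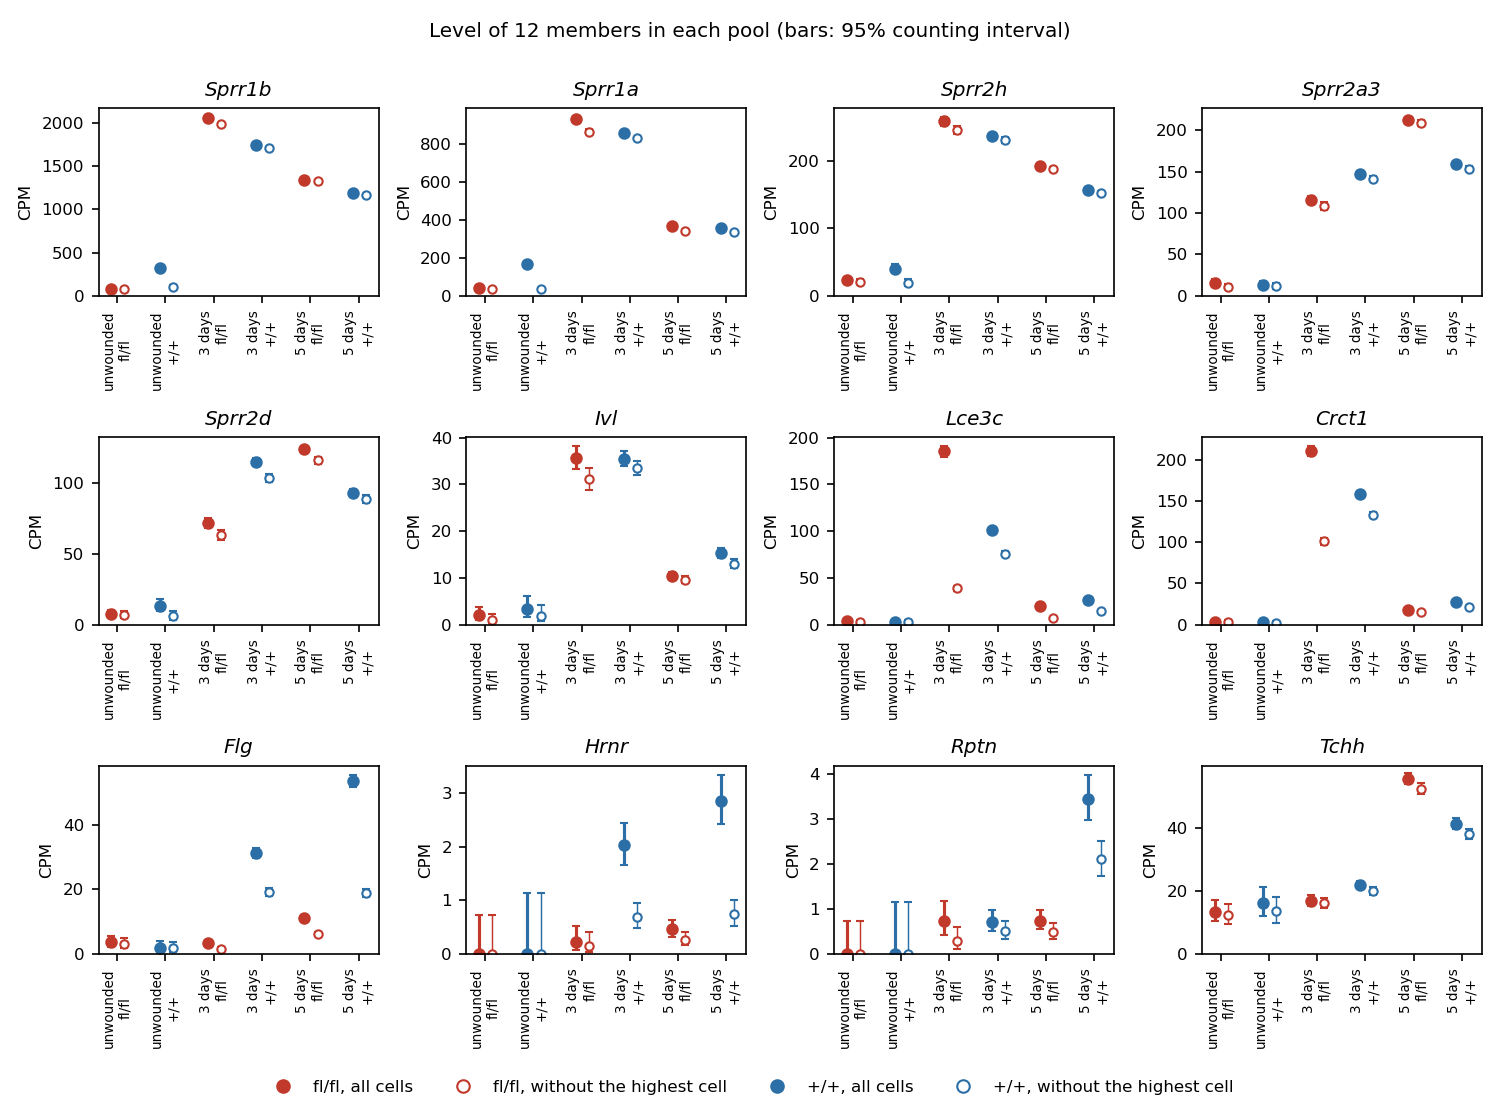
Level in CPM of 12 members in each pool, fl/fl in red and +/+ in blue; filled points are all cells, open points the same pool without the cell highest for that gene, and bars are 95% counting intervals. Sprr1b, Sprr1a and Sprr2h keep their levels without the highest cell in the wounded pools, Lce3c in 3 days fl/fl cells stands at 185 CPM with it and 39.1 CPM without it, and Flg in 5 days +/+ cells at 53.5 and 18.7 CPM.

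Against the unwounded pool of the same genotype, nearly every measured member was higher after wounding. At 3 days 18 of 19 measured members in fl/fl cells and 15 of 16 in +/+ cells were at least 2-fold higher, where the background over all measured genes was 12.3% and 11.8%. At 5 days all 14 measured members in fl/fl cells and all 16 in +/+ cells were higher, against 12.4% and 10.8% of all genes. No measured member was 2-fold lower in any of the 4 comparisons, against 27.9% (3 days fl/fl), 28.1% (3 days +/+), 27.9% (5 days fl/fl) and 28.8% (5 days +/+) of all genes. Most members counted had 5 CPM only in the wounded pool, namely 13 of 19 at 3 days fl/fl, 10 of 16 at 3 days +/+, 8 of 14 at 5 days fl/fl and 10 of 16 at 5 days +/+, so they could not have been counted as lower. The remaining 6 in each comparison (Sprr1a, Sprr1b, Sprr2a3, Sprr2d, Sprr2h and Tchh) reached 5 CPM in both pools, and 5 of them at 3 days and 6 at 5 days were higher in each genotype, the exception at 3 days being Tchh. These counts depend on how cells were assigned to pools: with a rule of 20 hashtag UMIs and 70% in the top hashtag, 4 members (Sprr2f, Lce3c, Lce3d and Crct1) were 2-fold lower in 5 days fl/fl over unwounded fl/fl cells. Under that rule the summed log2 folds in fl/fl cells were 2.13 at 3 days and 1.51 at 5 days, against 4.36 and 3.60 with the pools used here, and in +/+ cells 3.46 and 2.80, against 2.61 and 1.90. With free RNA subtracted from the pools used here, they were 5.15 and 4.38 in fl/fl cells and 2.79 and 2.08 in +/+ cells.

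Sprr1b had a log2 fold of 4.70 (4.56 to 4.85) at 3 days and 4.10 (3.96 to 4.24) at 5 days in fl/fl cells over unwounded fl/fl cells, and of 2.42 (2.33 to 2.51) and 1.86 (1.78 to 1.95) in +/+ cells. The smaller folds in +/+ cells go with the single unwounded +/+ cell described above. Without the cell with most member UMIs in each pool, the summed Sprr1 genes had log2 folds of 4.59 and 3.82 in fl/fl cells and 4.14 and 3.39 in +/+ cells, at 3 and 5 days. Lce3c had 5.73 (5.07 to 6.49) and 2.52 (1.85 to 3.28) in fl/fl cells and 4.89 (4.05 to 5.90) and 2.95 (2.11 to 3.96) in +/+ cells. Its fl/fl folds were 3.56 and 1.14 without the highest cell of each pool, and 1.64 and -1.37 under the other hashtag rule, so the direction at 5 days in fl/fl cells turned with the assignment of cells.

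For Ivl the log2 folds were 4.07 (3.22 to 5.08) and 2.29 (1.44 to 3.30) in fl/fl cells and 3.38 (2.54 to 4.39) and 2.18 (1.33 to 3.19) in +/+ cells, at 3 and 5 days over unwounded cells. Flg was 4.08 (2.95 to 5.53) and 4.85 (3.73 to 6.30) in +/+ cells, but 1.66 (0.99 to 2.42) in fl/fl cells at 5 days and level with unwounded fl/fl cells at 3 days (3.33 against 3.48 CPM). Tchh had 0.32 (-0.05 to 0.72) at 3 days and 2.06 (1.71 to 2.42) at 5 days in fl/fl cells, and 0.44 (0.04 to 0.87) and 1.36 (0.97 to 1.79) in +/+ cells. Lce3c, Crct1 and Ivl were thus highest at 3 days and Tchh at 5 days in both genotypes. Flg was higher at 5 than at 3 days in fl/fl cells, with a log2 fold of 1.73 (1.38 to 2.09), or 2.05 without the highest cell of each pool. In +/+ cells its log2 fold was 0.78 (0.69 to 0.86), or -0.03 without the highest cells, at 18.7 CPM at 5 days and 19.1 CPM at 3 days. In +/+ cells not called female, however, Flg had 8.60 CPM at 3 days and 54.8 CPM at 5 days. The latter level includes the highest cell, with 1898 of 2495 Flg UMIs. The time course of Flg in +/+ cells thus depends on which cells are counted.

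Set at 5 days against 3 days within a genotype, the early peak in pool levels was clearest for Ivl, Sprr1a, Crct1 and the Lce3 genes. In fl/fl cells it depended on few cells: without the 5 highest cells for each gene, 3 of 13 measured members were lower at 5 days. In fl/fl cells 10 of 24 measured members were at least 2-fold lower at 5 days (Sprr1a, Ivl, Lce1g, Lce3a, Lce3b, Lce3c, Lce3d, Lce3e, Lce3f and Crct1), against 2.12% of all genes, and 2 were higher (Flg and Tchh), against 0.96%. In +/+ cells 6 of 19 were lower (Sprr1a, Ivl, Lce3c, Lce3d, Lce3f and Crct1), against 1.05%, and 1 was higher (Sprr2i), against 0.47%. In fl/fl cells 7 of the 24 members reached 5 CPM at 3 days alone and 3 at 5 days alone, and in +/+ cells 1 of 19 at 3 days alone, so they could be counted in 1 direction only. Of those at 5 CPM in both pools, 4 of 14 in fl/fl cells and 5 of 18 in +/+ cells were lower, and 1 in each was higher. The median log2 fold of the measured members was -0.48 in fl/fl cells and -0.31 in +/+ cells, where all genes had -0.01 and -0.04.

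The summed Lce3 genes at 5 days over 3 days stood at -4.01 (-4.08 to -3.93) in fl/fl cells and -2.46 (-2.53 to -2.40) in +/+ cells on the log2 scale. Without the cell with most member UMIs in each pool the values were -1.60 (-1.70 to -1.50) and -2.08 (-2.15 to -2.01). Crct1 was -3.52 (-3.61 to -3.43) and -2.55 (-2.63 to -2.47), and Sprr1a -1.34 (-1.37 to -1.32) and -1.26 (-1.29 to -1.24), in fl/fl and +/+ cells. The Sprr2i call in +/+ cells came from the cell described above and was -0.27 without the highest cell of each pool.

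**Figure D3:**
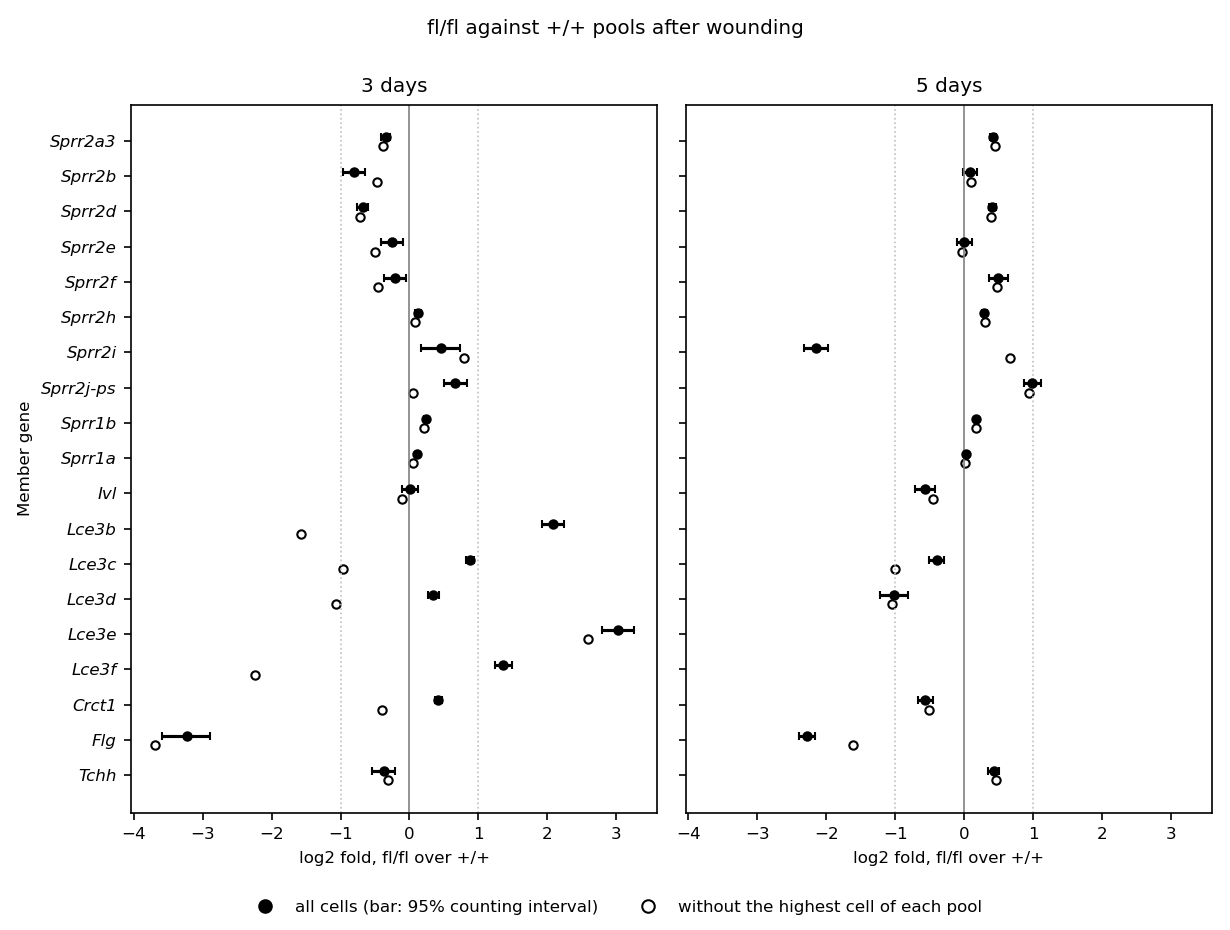
log2 fold of fl/fl over +/+ cells at 3 days (left) and 5 days (right) for the named members with a mean of at least 5 CPM; filled points with 95% counting intervals are all cells, open points leave out the highest cell for the gene in each pool, and dotted lines mark 2-fold. Flg lies below -1 at both times by either measure, whereas the filled and open points of Lce3b, Lce3c, Lce3d, Lce3f and Crct1 at 3 days and of Sprr2i at 5 days lie on opposite sides of 0. Those of Ivl at 3 days and Sprr2e at 5 days also do, with both points close to 0.

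Between genotypes the Sprr1 and most Sprr2 genes were close to each other after wounding, Flg was lower in fl/fl cells at both times, and the Lce3 difference at 3 days turned round with the removal of a single cell. At 3 days 5 of 23 measured members were at least 2-fold higher in fl/fl than in +/+ cells (Lce1g, Lce3a, Lce3b, Lce3e and Lce3f), against 0.107% of all genes, and Flg was lower, against 0.267%. At 5 days 1 of 19 was higher (Sprr2k), against 0.0432%, and 3 were lower (Sprr2i, Lce3d and Flg), against 0.907%. At 3 days 3 members reached 5 CPM in fl/fl cells alone and 2 in +/+ cells alone, and at 5 days 1 and 2, so the minimum level allowed them 1 direction only. Of the members at 5 CPM in both pools, 2 of 18 were higher and 0 lower at 3 days, and 0 of 16 were higher and 1 lower at 5 days. The median log2 fold over measured members was 0.12 at 3 days and 0.10 at 5 days, and -0.02 and 0.01 over all genes. Sprr1b was 0.23 (0.22 to 0.25) at 3 days and 0.18 (0.16 to 0.19) at 5 days, and Sprr2a3 was -0.34 (-0.41 to -0.28) and 0.42 (0.38 to 0.46).

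All 5 members higher at 3 days were carried mainly by the one fl/fl cell with most member UMIs, which held 68.8% (Lce3e) to 98.1% (Lce3a) of their UMIs. Lce3e was nonetheless higher without the highest cell of each pool, with 9.72 CPM in fl/fl cells against 1.60 CPM in +/+ cells. Summed Lce3 genes stood at 412 CPM in fl/fl cells and 204 CPM in +/+ cells, a log2 fold of 1.01 (0.97 to 1.05). Without the cell with most member UMIs in each pool they stood at 77.7 and 156 CPM, a log2 fold of -1.01 (-1.09 to -0.93). Admitting cells of up to 20% mitochondrial UMIs also turned Lce3c round, with 0.88 as given and -1.36 with those cells. At this number of Lce3-rich cells (7 fl/fl and 20 +/+ cells with at least 10 Lce3c UMIs at 3 days) the direction between genotypes cannot be read from these pools.

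Flg had a log2 fold of -3.23 (-3.59 to -2.90) at 3 days and -2.28 (-2.39 to -2.16) at 5 days, fl/fl over +/+. Summed with Hrnr and Rptn it was -2.99 (-3.31 to -2.69) and -2.29 (-2.40 to -2.18). Without the highest Flg cell of each pool the levels were 1.49 CPM in fl/fl cells against 19.1 CPM in +/+ cells at 3 days, and 6.14 against 18.7 CPM at 5 days, with log2 folds of -3.69 and -1.61. Cells with at least 10 Flg UMIs numbered 1 of 523 fl/fl and 16 of 1281 +/+ cells at 3 days, and 10 of 1434 fl/fl and 11 of 1353 +/+ cells at 5 days, so at 5 days the numbers of such cells were close and the levels per cell were not. The sum of 6 upper follicle markers, Krt79 and Cst6 among them, moved the same way. It stood at 903 CPM in fl/fl cells against 1726 CPM in +/+ cells at 3 days, and at 766 against 1077 CPM at 5 days. Much of the 3-day difference lay in Cst6, which is also in the list of envelope partners described below. Without the cell with most member UMIs in each pool, Cst6 had 275 against 787 CPM at 3 days and 222 against 350 CPM at 5 days. The part of these markers in the Flg difference was not tested.

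The Flg level of the 3 days +/+ pool moved with the cells called female, which the fl/fl pool lacks. Among the 3 days +/+ cells with at least 10 Flg UMIs, 10 were called female and 6 were not. Of the Flg UMIs of 3 days +/+ cells, 80.7% came from the female cells, at 84.5 CPM, and the 882 other cells stood at 8.60 CPM. Against those other cells the log2 fold at 3 days was -1.37. At 5 days the female cells held 14.4% of the +/+ Flg UMIs, and the log2 fold without them was -2.31. Within the 3 days +/+ pool the female cells were also higher for Krt1 (2218 CPM against 1059 CPM in the other cells) and Lce3c (205 against 56.6 CPM). The part of the animals' sex in the Flg difference was not tested.

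In unwounded cells 6 members were measured, of which Sprr1b and Sprr1a were at least 2-fold lower in fl/fl than in +/+ cells, against 0.986% of all genes, and none was higher, against 0.44%. The log2 folds were -2.05 (-2.22 to -1.89) and -2.03 (-2.26 to -1.79). The highest +/+ cell held 716 of 1057 Sprr1b UMIs and 428 of 539 Sprr1a UMIs, and also 51.5% of the Krt16 and 58.8% of the Cnfn UMIs of its pool. Without the cell with most member UMIs in each pool the summed Sprr1 genes stood at 118 CPM in fl/fl cells and 144 CPM in +/+ cells, a log2 fold of -0.29 (-0.46 to -0.11).

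Within the wounded pools the members were spread over cells in different ways, and the early suprabasal keratins Krt1 and Krt10 separated them. Cells were ranked by the UMIs of Krt1 and Krt10 together per 10000 UMIs and divided at 10 and at 100. Cells at or above 100 made up 3.06% of 3 days fl/fl and 6.32% of 3 days +/+ cells, 14.02% of 5 days fl/fl and 14.9% of 5 days +/+ cells, and 3 and 1 cells in the unwounded fl/fl and +/+ pools. The 500 such cells of the 4 wounded pools held 11.4% of all UMIs, and the 3488 cells below 10 held 73.8%. Around the cut at 100, between 12 cells (3 days fl/fl) and 89 cells (5 days +/+) of a pool lay within 1.5-fold of it.

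Flg, Hrnr and Rptn UMIs lay almost wholly in the cells of high Krt1 and Krt10, at 95.7%, 91.4% and 89.8%. Flg had 227 CPM in those cells, 4.72 CPM in the middle range and 0.65 CPM below 10. The share held in each pool, at 82.4% of Flg UMIs at 3 days fl/fl, 92.6% at 3 days +/+, 92.6% at 5 days fl/fl and 98.6% at 5 days +/+. Within the high cells Flg had 76.2 CPM in fl/fl cells against 404 CPM in +/+ cells at 3 days, and 74.2 against 336 CPM at 5 days. Without the highest Flg cell of each pool the 3-day levels were 27.4 against 237 CPM, and the 5-day levels 38.9 against 115 CPM. Without the cells called female the 3-day levels were 76.2 against 125 CPM, a log2 fold of -0.71 (-1.14 to -0.31), and the 5-day levels 74.2 against 347 CPM.

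The Lce3 genes and Crct1 lay at the other end. Cells below 10 held 98.1% of Lce3c, 95.7% of Lce3d, 98.5% of Lce3b, 99.0% of Lce3f and 95.3% of Crct1 UMIs. Lce3c had 81.9 CPM there, 2.91 CPM in the middle range and 6.69 CPM in the high cells. Ivl (87.3%) and Sprr1a (81.7%) leaned the same way, against the 73.8% that all genes had in these cells.

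The remaining members crossed this axis with little change or leaned towards Krt1 and Krt10. Sprr1b had 1501, 1538 and 1328 CPM from the low to the high range, and Sprr2h 209, 209 and 143 CPM. Sprr2a3 had 135, 230 and 316 CPM, and Tchh 31.4, 56.6 and 59.3 CPM. Casp14, the protease that degrades filaggrin, had 7.95, 29.0 and 99.3 CPM and so ran with Flg, whereas Cnfn, the gene of cornifelin, had 227, 82.8 and 72.5 CPM and ran with the Lce3 genes.

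**Figure D4:**
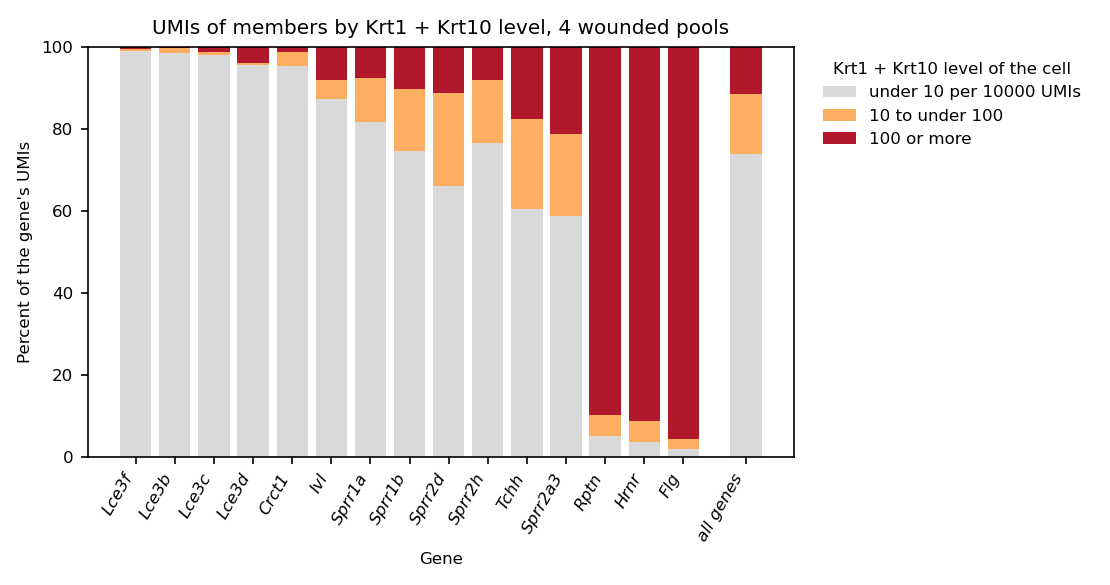
Share of each gene's UMIs, in the 4 wounded pools together, that lay in cells of low (grey), middle (orange) and high (red) Krt1 + Krt10 level, with all genes in the last bar. The Lce3 genes and Crct1 have over 95% in the grey part, and Rptn, Hrnr and Flg about 90% or more in the red part, where all genes have 11.4%.

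High counts of Flg and of Lce3c were both rare, and the cells that carried them differed in their other genes. Among the 4591 wounded cells, 38 held at least 10 Flg UMIs and 40 at least 10 Lce3c UMIs, and 1 cell held both. That is 2.63% of the Flg-rich cells, where 0.871% of all wounded cells were Lce3c-rich, so the overlap was not below the share in all cells and does not show that the genes avoid each other. At 5 UMIs there were 51 and 50 cells with 2 in both (3.92%, against 1.09% of all cells), and at 20 UMIs 34 and 36 with 1 in both. Of the 40 Lce3c-rich cells 32 (80.0%) also held at least 10 Crct1 UMIs, against 2.16% of all wounded cells, and all 38 and all 40 held at least 10 Sprr1b UMIs, against 38.5%. Both kinds occurred in all 4 wounded pools, as 1, 16, 10 and 11 Flg-rich and 7, 20, 7 and 6 Lce3c-rich cells at 3 days fl/fl, 3 days +/+, 5 days fl/fl and 5 days +/+.

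**Figure D5:**
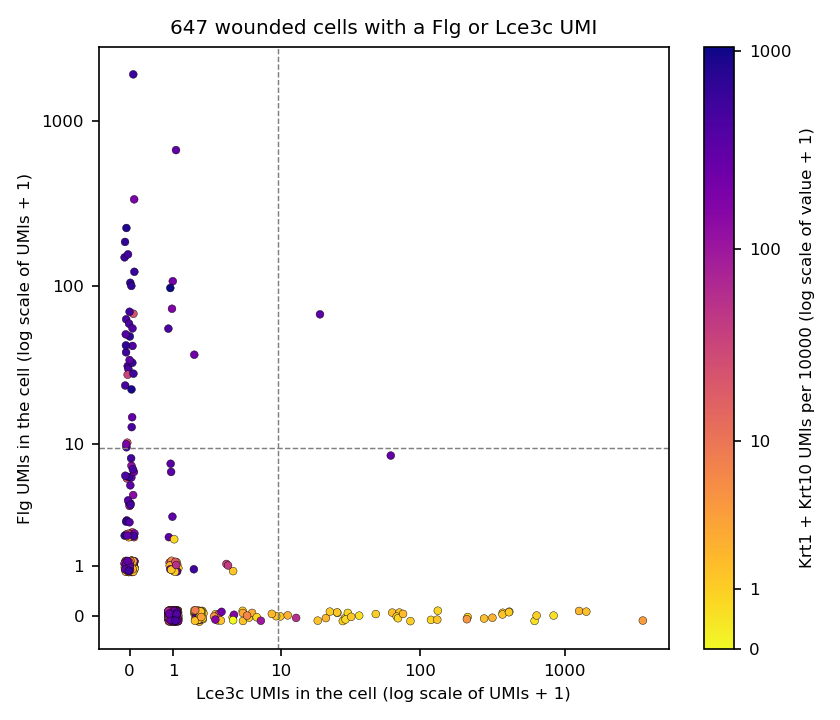
Each point is 1 of the 647 wounded cells with a Flg or Lce3c UMI, placed by its Lce3c UMIs (x) and Flg UMIs (y) on log scales of the count + 1 with slight random offset, and coloured by Krt1 + Krt10 level; dashed lines mark 10 UMIs. The points follow the 2 axes, with dark points of high Krt1 + Krt10 along the Flg axis, light points along the Lce3c axis, and 1 cell beyond both lines.

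The 37 cells rich in Flg alone and the 39 rich in Lce3c alone differed across many other genes, with similar depths (medians of 52260 and 54875 UMIs, against 40309 in the 4514 other cells). Krt1 stood at 21988 CPM in Flg-rich and 377 CPM in Lce3c-rich cells, against 1818 CPM in the other cells. Krt10 stood at 20440 and 509 CPM, and Krt79, a keratin of the upper follicle, at 1294 and 3.61 CPM. Krt16, a keratin of the wound edge, stood at 9133 and 30438 CPM, Sprr1a at 658 and 10922 CPM, Cnfn at 304 and 5784 CPM, and Crct1 at 27.3 and 3941 CPM. Tgm1, a transglutaminase of the envelope, was at 91.9 and 480 CPM, and Casp14 at 385 and 76.6 CPM.

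Between these cells the Sprr2 genes also parted. Sprr2a3 stood at 384 CPM in Flg-rich and 54.1 CPM in Lce3c-rich cells, while Sprr2d stood at 86.4 and 1482 CPM and Sprr2h at 150 and 1931 CPM. Hrnr was at 119 and 3.21 CPM, Rptn at 93.9 and 1.20 CPM, and Ivl at 87.4 and 263 CPM. In each of the 3 pools with at least 5 cells of either kind, Krt1 was higher in the Flg-rich cells, at 21189 against 240 CPM (3 days +/+), 18890 against 52 CPM (5 days fl/fl) and 25247 against 1698 CPM (5 days +/+). Doublets within a hashtag could not be removed and would only add to cells holding both transcripts.

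Across the cells of each wounded pool, the members that went together were described by Pearson correlations of log2(UMIs per 10000 + 1), each cell sharing its library and depth with the others. Sprr1a and Sprr1b gave 0.66 to 0.79 over the 4 pools, with 523 to 1434 cells in each, Sprr2h and Sprr1b 0.70 to 0.79, and Sprr2a3 and Sprr2b 0.60 to 0.72. Lce3c gave 0.55 to 0.71 with Crct1 and 0.47 to 0.86 with Lce3d. Sprr2a3 stood at -0.08 to 0.05 with Sprr1a, and Tchh at -0.14 to -0.04 with Sprr1b. Sprr2h thus went with the Sprr1 genes, and Sprr2a3 with Sprr2b.

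Genes that act with the envelope were described as lists grouped by function. As for the members, a list gene that reached 5 CPM only in the wounded pool could not have been counted as lower over unwounded cells. Tgm3 among the partners and Grhl3 among the regulators were such genes in fl/fl cells. Of 13 cross-linking and envelope partner genes, 7 of 12 measured were at least 2-fold higher and 1 lower in 3 days fl/fl over unwounded fl/fl cells. In +/+ cells 8 of 12 were higher and 1 lower. Of all genes 12.3% (fl/fl) and 11.8% (+/+) were higher, and 27.9% and 28.1% lower. The median log2 folds of the list were 1.67 and 2.18, where all genes had -0.31 and -0.29. Without the cell with most member UMIs in each pool the list had 1.65 and 2.57. Tgm1 had 3.48 and 12.3 CPM in unwounded fl/fl and +/+ cells, 62.0 and 54.1 CPM at 3 days, and 29.9 and 27.4 CPM at 5 days. Tgm3, another epidermal transglutaminase, had 4.06 and 3.70 CPM unwounded, 18.9 and 37.7 CPM at 3 days, and 44.7 and 47.8 CPM at 5 days. Lor, the gene of loricrin, the main protein of the mature envelope, stayed at 0.968 to 3.22 CPM in every pool.

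Of 21 genes of filaggrin processing and barrier lipids, 12 of 13 measured were higher in 3 days fl/fl over unwounded fl/fl cells. In +/+ cells 13 of 15 were higher, where the shares of all genes were 12.3% (fl/fl) and 11.8% (+/+). None was lower, against 27.9% and 28.1% of all genes. Some genes, such as Casp14 and Klk7, had under 5 CPM in both unwounded pools and could not have been counted as lower. The median log2 folds were 2.47 in fl/fl and 1.39 in +/+ cells. Without the cell with most member UMIs in each pool they were 2.63 and 2.47. Spink5, a protease inhibitor, had 21.3 and 80.5 CPM in unwounded fl/fl and +/+ cells, 202 and 211 CPM at 3 days, and 142 and 130 CPM at 5 days. Abca12, a lipid transporter of lamellar granules, had 18.6 and 47.5 CPM unwounded, 129 and 168 CPM at 3 days, and 125 and 126 CPM at 5 days. None of this list was 2-fold apart between fl/fl and +/+ cells at 3 days (0 of 15), where 0.107% of all genes were higher and 0.267% lower. At 5 days 1 of 13 was lower in fl/fl cells, against 0.907% of all genes. In unwounded cells 4 of 10 were lower in fl/fl cells, against 0.986% of all genes. Without the cell with most member UMIs in each pool 0 of 10 were lower in unwounded cells and 0 of 13 at 5 days. Spink5 then had 20.1 CPM in unwounded fl/fl cells, against 24.8 CPM in unwounded +/+ cells, and Abca12 18.4 against 26.4 CPM.

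Among 23 regulators known to act on the locus, all measured at 3 days, 11 were higher and 4 lower in fl/fl cells over unwounded fl/fl cells. In +/+ cells 11 were higher and 3 lower. Of all genes 12.3% (fl/fl) and 11.8% (+/+) were higher, and 27.9% and 28.1% lower. Grhl3, a factor of barrier formation, had 2.32 and 18.8 CPM in unwounded fl/fl and +/+ cells, 48.4 and 50.4 CPM at 3 days, and 33.2 and 28.3 CPM at 5 days. Klf4, a zinc-finger factor of barrier formation, ran the other way, with 1116 and 918 CPM unwounded, 440 and 519 CPM at 3 days, and 414 and 472 CPM at 5 days. Jun had 2237 and 1669 CPM unwounded, 562 and 620 CPM at 3 days, and 773 and 821 CPM at 5 days. No regulator was 2-fold apart between fl/fl and +/+ cells at 3 or at 5 days (0 of 23 each), which is near the shares of all genes given above for those genotype comparisons. In unwounded cells 5 of 22 were lower in fl/fl cells and none higher, against 0.986% and 0.44% of all genes. Without the cell with most member UMIs in each pool 0 of 20 were lower. Grhl3 then had 2.35 CPM in unwounded fl/fl cells, against 6.05 CPM in unwounded +/+ cells, and was left out of that count because its mean fell below 5 CPM.

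Of 22 other genes of the complex, 11 or 12 were measured in each comparison. At 3 days 5 were higher and 3 lower in fl/fl cells over unwounded fl/fl cells, and 6 higher and 3 lower in +/+ cells. The lower counts were near the 27.9% and 28.1% of all genes, and 12.3% and 11.8% of all genes were higher. S100a4 had 3372 and 2569 CPM in unwounded fl/fl and +/+ cells, 112 and 114 CPM at 3 days, and 52.3 and 55.0 CPM at 5 days. S100a11 had 926 and 910 CPM unwounded, 1985 and 1985 CPM at 3 days, and 1745 and 1752 CPM at 5 days. Of 11 early suprabasal genes, 6 were higher and 1 lower in 3 days fl/fl cells and 8 higher and 1 lower in +/+ cells over unwounded cells. The shares of all genes were 12.3% and 11.8% higher and 27.9% and 28.1% lower. Krt1 stood at 441 and 314 CPM unwounded, 721 and 1405 CPM at 3 days, and 2164 and 2929 CPM at 5 days, in fl/fl and +/+ cells.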

How the data were processed

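One gene expression library and one hashtag library from a single droplet capture were used, covering 6 pools of sorted mouse skin cells. The values are deposited UMI counts per gene and per hashtag in every barcode, which the authors made with Cell Ranger 7.1.0 on mm10, per the submitters' processing notes, which also name Seurat 4.3.0. Filters asked for 1000 gene UMIs or more, 500 genes or more and a mitochondrial share of no more than 10%, which left 6900 of 2997303 barcodes. HTODemux of Seurat 5.3.0 (R 4.3.3, quantile 0.99) gave 5659 singlets, 503 hashtag doublets and 738 negatives, and only singlets were used. Doublets within a hashtag stay.

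Counts were summed per pool and scaled to CPM with Python 3.11.15, numpy 2.4.6, pandas 2.3.3 and scipy 1.17.1. Intervals (95%) are exact Poisson for levels, exact conditional binomial for folds and Clopper-Pearson for shares. They cover counting error only. A gene was measured in a comparison of 2 pools at a mean of at least 5 CPM and called past 2-fold. A count of 3 is the floor. The procedure was tested on simulated data. With 1 pool per condition no test between conditions was made.

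Members with at least 20 CPM in some pool, and the 8 members listed by symbol, are given in every pool. From each list of related genes up to 4 with the highest mean are eligible to be named, and Lor, Krt1, Krt10, Tgm1, Tgm3, Klf4, Grhl3, Cd34 and Phgdh always. The other marker and list genes named were chosen after their values were seen. Members and lists were chosen with earlier results of these data known. The 14 alternatives changed filters, hashtag calls, scaling (TMM of edgeR 4.0.16), weights, the highest cells, free RNA, female cells and the minimum level.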

Additional observations from a re-analysis of the deposited data

How the results depend on the processing

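Of 108 called folds, 1230 of 1263 alternative values kept their sign and 33 did not, and 181 of 252 alternative counts of members lay within 1.5 times the count given. Some choices were made after seeing the data: leaving out the cell with most member UMIs in each pool, thresholds of 5 and 20 UMIs for Flg-rich and Lce3c-rich cells, ranking cells by Cnfn, leaving cells out of the Flg levels within high Krt1 plus Krt10 cells, and leaving a cell out of the gene lists. No paired analysis was possible because each condition is 1 pool. The cause of each change below was not tested, except that a lower or absent minimum changes how many members are counted. Precision is limited by the few cells that carry most UMIs of Flg, the Lce3 genes and Sprr2i, and by the shallow unwounded cells. The ranking by Lor could not be used, since no cell reached its upper range.

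Without a minimum level, members higher and lower numbered 4 and 4 (unwounded fl/fl over +/+), 8 and 10 (3 days fl/fl over +/+), 3 and 14 (5 days fl/fl over +/+), and 8 higher (5 over 3 days fl/fl) and 6 and 14 (5 over 3 days +/+). Over unwounded cells they were 29 higher (3 days fl/fl), 30 and 2 (5 days fl/fl), 37 and 1 (3 days +/+) and 38 and 3 (5 days +/+). With a minimum of 20 CPM, 2 were higher and 0 lower (3 days fl/fl over +/+), 0 and 1 (5 days fl/fl over +/+), 1 and 6 (5 over 3 days fl/fl) and 0 higher (5 over 3 days +/+), and over unwounded cells 9, 6, 8 and 7 were higher (3 days fl/fl, 5 days fl/fl, 3 days +/+ and 5 days +/+).

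In unwounded fl/fl over +/+ cells, 0 members were lower with the hashtag rule of 20 UMIs and 70%, with equal weight per cell, without the 1 or 5 highest cells for each gene, without cells above the 95th percentile of UMIs and without the cell with most member UMIs, 4 were lower with free RNA subtracted, and 7 were higher with the hashtag rule. The summed log2 fold was 1.39 with the hashtag rule, 0.062 without the 5 highest cells and 0.001 without cells above the 95th percentile. Sprr1b stood at 0.45 with the hashtag rule. Sprr1a stood at 2.81 with the hashtag rule, 0.056 without the highest cell, 0.088 without the 5 highest, 0.060 without cells above the 95th percentile and 0.15 without the cell with most member UMIs.

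In 3 days fl/fl over +/+ cells, 1 member was higher with up to 20% mitochondrial UMIs, equal weight, without the highest cell, without cells above the 95th percentile and without the cell with most member UMIs, and 0 without the 5 highest. There 5 were lower with up to 20% mitochondrial UMIs, without the 5 highest and without cells above the 95th percentile, and 3 without the highest cell or the cell with most member UMIs. In the order up to 20% mitochondrial UMIs, without the highest cell, without the 5 highest, without cells above the 95th percentile and without the cell with most member UMIs, Lce3b stood at -3.36, -1.58, -0.48, -3.50 and -3.12, and Lce3f at -2.87, -2.24, -2.10, -2.59 and -2.75. Lce3e stood at -0.85 without the 5 highest. Flg kept its direction under every alternative computed, at -4.15 to -1.37 at 3 days and -2.35 to -1.004 at 5 days.

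In 5 days fl/fl over +/+ cells, 2 members were higher at 2000 UMIs, up to 20% mitochondrial UMIs, TMM and without the cell with most member UMIs, 3 without cells above the 95th percentile, and 0 without the 1 or 5 highest cells, where 1 was lower. Sprr2i stood at 0.67 without the highest cell, 0.49 without the 5 highest and 0.98 without the cell with most member UMIs, and Lce3d at 0.10 without the 5 highest.

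Over unwounded cells, 8 were higher without the 5 highest cells in 3 days fl/fl and in 5 days +/+ cells. With the hashtag rule 4 were lower in 5 days fl/fl cells, and Sprr2f and Lce3d stood at -0.88 and -0.12 in 3 days fl/fl cells, and Sprr2f, Lce3c, Lce3d and Crct1 at -1.02, -1.37, -3.67 and -1.64 in 5 days fl/fl cells. In 5 over 3 days fl/fl cells, 4 were lower with up to 20% mitochondrial UMIs and without the cell with most member UMIs, 5 without the highest cell, 3 without the 5 highest and 6 without cells above the 95th percentile, and 1 and 4 were higher without the highest and the 5 highest. In 5 over 3 days +/+ cells, 2 were higher at 5% mitochondrial UMIs and without cells above the 95th percentile, 3 without female cells, and 0 without the 1 or 5 highest cells or the cell with most member UMIs, where Sprr2i stood at -0.27, -0.38 and -1.05. With the upper cut of Krt1 plus Krt10 at 200, high cells held 87.1% of Flg and 0.988% of Lce3c UMIs, and at 50 they held 1.54% of Lce3c UMIs. Thinned to 5000 UMIs, 32.7% and 33.8% of unwounded fl/fl and +/+ cells held a Sprr1b UMI, 53.3% and 51.5% at 3 days, and 56.6% and 49.1% at 5 days.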

Other observations

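Ranked by Cnfn in place of Krt1 plus Krt10, the wounded cells with at least 10 Cnfn UMIs per 10000 held 95.7% of Lce3c, 86.4% of Crct1 and 61.9% of Sprr1a UMIs, but 6.49% of Flg and 0.723% of Tchh UMIs. These cells numbered 31 and 63 at 3 days and 24 and 17 at 5 days, in fl/fl and +/+ cells, and none was found unwounded. Of the 134 wounded cells with at least 10 Tchh UMIs (2.92% of all), 1 also held at least 10 Flg UMIs (0.746%, against 0.828% of all wounded cells) and 0 held at least 10 Lce3c UMIs (against 0.871%), counts too low to be told from those shares.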
